A study of Bos taurus with 8 samples.

Results

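The spindle checkpoint and kinetochore genes examined here were BUB1, BUB1B, BUB3, MAD2L1, TTK, NDC80, NUF2, SPC24, SPC25 and CENPE, 10 genes chosen by name. A probe was taken where the platform's annotation gave it one of these symbols, which selected 11 of the 43794 gene probes on the array and 9 of the 10 genes. BUB3 and SPC25 had 2 probes each and the other 7 genes had 1, and 10 of the 11 probes, which cover all 9 genes, reached the mean log2 intensity of 7 needed to be tested. No probe carried the symbol TTK, a checkpoint kinase, so TTK was not analysed here. A further probe was annotated MAD2, which the reference gene records list as a synonym of MAD2L1, and its values are given beside MAD2L1 without being counted.

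The samples were granulosa cells, the steroid-producing layer that lines the ovarian follicle, scraped from individual dominant follicles over 9 mm wide in slaughterhouse ovaries of Holstein cattle. The reproductive state and age of the animals were not given in the sources used here. Follicles at the plateau of their growth were compared with atretic follicles, which regress, 4 of each, and each two-colour array carried amplified RNA of 1 atretic and 1 plateau follicle. The 8 arrays lay on 2 slides with the dyes swapped between slides, which made 4 pairs of follicles measured on 2 arrays each. The study had placed each follicle in its phase by the DNA content of its cells in flow cytometry, ranking them by the share of resting plus dividing cells less the share with reduced DNA. Resting and dividing cells counted alike in that ranking, although the study described its plateau group as having few mitoses and limited atresia. The cytometry shares of each follicle were not examined here, so the phases cannot be taken as independent of cell division. Nothing in the labels ties the follicles to separate cows, so p-values measure only the spread between these samples.

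The kinetochore is the protein assembly on each centromere that holds chromosomes to the spindle. Kinetochores without attached microtubules recruit checkpoint proteins, which keep the anaphase-promoting complex and its activator CDC20 inactive until every chromosome is attached. The transcripts of many of these genes accumulate in cells that are about to divide or are dividing, and granulosa cells divide while the follicle grows.

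The array signal set the following limits. An array's median spot intensity lay between 162 and 283 in Cy5 and between 205 and 374 in Cy3, the local background between 39 and 71 and between 21 and 31, and the number of pairs limits the precision. Each probe gave 16 readings, 8 from atretic and 8 from plateau RNA, and a reading was taken as above background where it exceeded the mean of 153 negative control spots by 2 SD. Granulosa markers ranged from FOXL2, at a mean log2 intensity of 7.795 over all arrays, to INHBA at 15.46. The mean over the 9 marker genes was 11.32 to 12.43 in the atretic follicles. In the plateau follicles that mean was 12.75, 10.54, 9.83 and 12.90. Aromatase (CYP19A1) stood near the negative controls in plateau follicles 2 and 3, at 7.27 and 7.47, where INHA, the inhibin alpha subunit, was at 13.95 and 11.62. CDH2, another gene of the list, was highest in these 2 follicles, at 14.4 and 15.4. Plateau follicle 3 stood apart, with CYP19A1 at 7.47 and the collagen COL1A2 at 15.87, while its mean over 7 stroma markers was 13.62 against 7.99 to 9.54 in every other follicle. Results are therefore also given without pair 3.

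As a group, the spindle checkpoint and kinetochore genes were lower in atretic than in plateau follicles. They were chosen with earlier results of these data known, so their direction is not independent evidence. Of the 9 genes measured, 7 were lower at the threshold named by the study, a fold of 1.5 at an unadjusted p of 0.05 in limma, and 0 were higher. The same threshold was passed in the lower direction by 378 of 12944 genes, 2.92% of all genes tested, and in the higher direction by 2.84%. After Benjamini-Hochberg adjustment over all probes in limma, 0 of the 9 genes and 0% of all genes passed 0.05, while 7 of the 9 had an unadjusted p under 0.05. The genes that fell were BUB1, BUB1B, NDC80, NUF2, SPC24, SPC25 and CENPE, and those that did not pass were BUB3 and MAD2L1. In bulk RNA of this kind, fewer cells of a type and less RNA per cell cannot be told apart.

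The median log2 ratio of atretic over plateau was -1.07 over the 9 genes and 0.00 over all genes. By pair, the median over the 9 genes was -0.98, -0.31, -1.93 and -1.20, with the smallest shift in pair 2 and the largest in pair 3. Without pair 3, 6 genes were lower at the threshold, beside 2.63% of all genes, and the median was -0.78. When follicle levels were compared without the pairing by array, 4 of the 9 genes were lower, namely BUB1, BUB1B, SPC24 and SPC25, beside 1.84% of all genes. Fitted as 8 arrays with the pair as a replicate block, 4 genes passed an adjusted p of 0.05 in limma, namely BUB1, BUB1B, NUF2 and SPC25, beside 1.51% of all genes that were lower by the same fit. The block takes the arrays of a pair, which hold the same RNA, as repeated measurements, with a common correlation for all probes. Its adjusted p-values may therefore be too small for genes measured in 4 pairs of follicles.

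**Figure D1:**
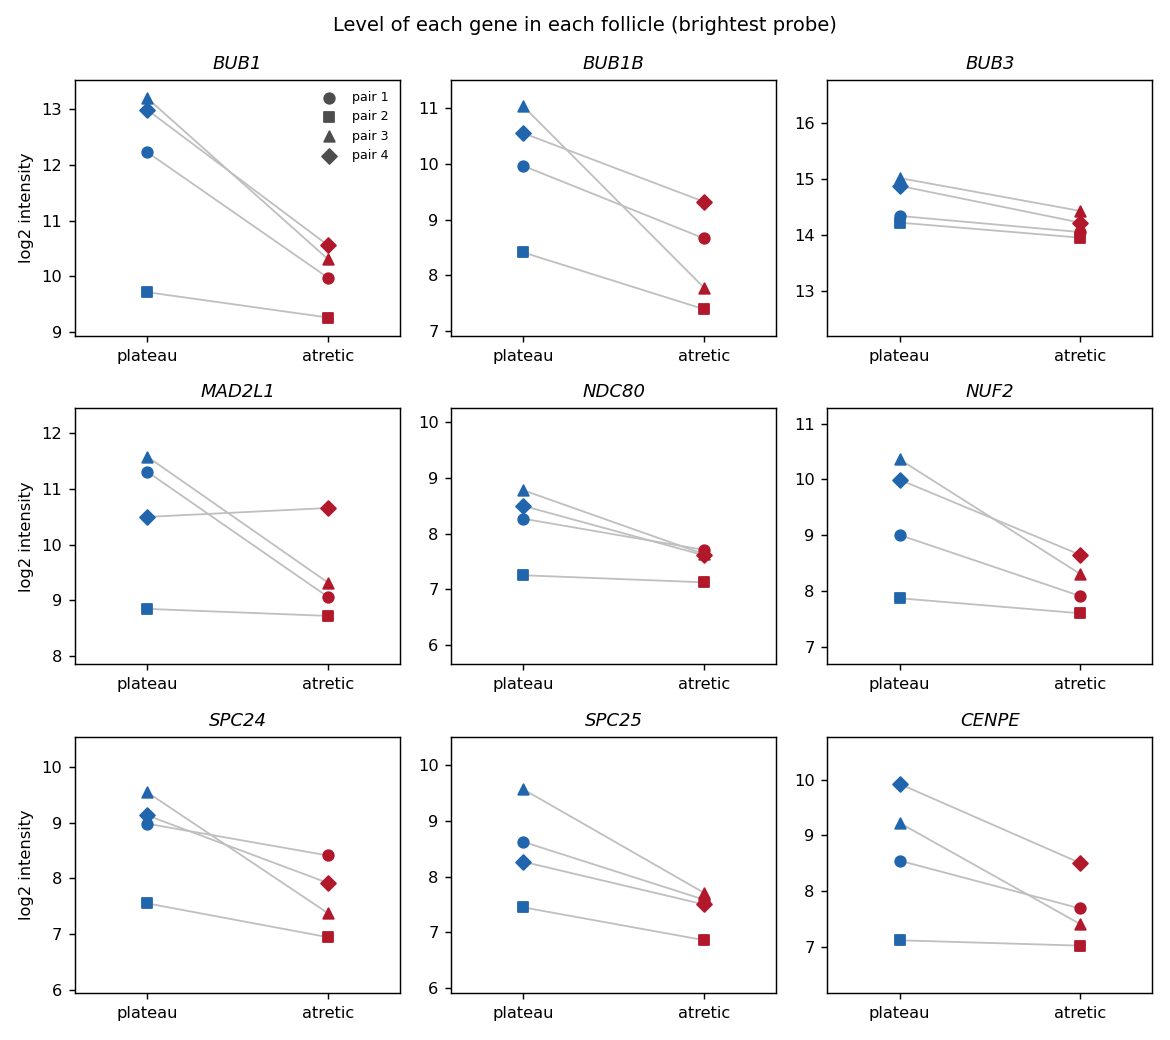
Level of each of the 9 measured genes in the 4 plateau follicles (blue) and the 4 atretic follicles (red), as log2 intensity of the brightest probe; symbols mark the pair and grey lines join follicles of 1 pair. All vertical axes span the same width, and plateau follicle 2 (square) lies near the atretic follicles in most panels, at 9.72 for BUB1 against 12.23 to 13.20 in the other plateau follicles.

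BUB1 and BUB1B were examined first. BUB1 is a kinase that builds the checkpoint signal at the kinetochore, and BUB1B encodes BUBR1, a part of the complex that restrains CDC20. The BUB1 probe (EMBV3_38370) read 9.98, 9.26, 10.31 and 10.56 in atretic follicles 1 to 4, and 12.23, 9.72, 13.20 and 12.99 in plateau follicles 1 to 4, as log2 intensity. The groups overlapped through plateau follicle 2 alone, whose level was within the atretic range. The log2 ratio of BUB1 was -1.96 ± 1.01 (SD, n = 4 pairs), a 3.88-fold lower level in atretic follicles, with a 95% interval of -2.94 to -0.97 and an adjusted p of 0.284 in limma. All 8 arrays gave a ratio below 0, the mean being -1.91 on slide 205 and -2.004 on slide 206. BUB1 had the 18th lowest ratio of the 12944 genes. The study also measured BUB1 by qRT-PCR in RNA that included these follicles, and those values were not used here.

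BUB1B (EMBV3_28797) read 8.66, 7.39, 7.78 and 9.32 in the atretic follicles and 9.96, 8.41, 11.03 and 10.55 in the plateau follicles. Plateau follicle 2 was again the lowest of its group, and it lay below atretic follicles 1 and 4. The 4 pairs gave log2 ratios of -1.24, -1.08, -3.14 and -1.23, so pair 3 lay far below 3 pairs that were close to each other. The mean was -1.67 ± 0.98 (SD, n = 4), 3.19-fold lower in atretic follicles (adjusted p = 0.364 in limma). Without pair 3 it was -1.18, with an unadjusted p of 0.000387 in limma. In the atretic follicles 7 of 8 readings of this probe were above the negative controls.

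BUB3 and MAD2L1 are the checkpoint proteins that did not pass the threshold. BUB3 is the adaptor that brings BUB1 and BUBR1 to kinetochores. Its brightest probe (EMBV3_37527) read 14.05, 13.95, 14.43 and 14.22 in the atretic follicles and 14.34, 14.22, 15.02 and 14.88 in the plateau follicles. Atretic follicle 3 was above plateau follicles 1 and 2, so the groups overlapped. The log2 ratio was -0.31 ± 0.31 (SD, n = 4), with a 95% interval of -0.70 to 0.08 and an unadjusted p of 0.101 in limma, and the slides gave -0.14 and -0.47. The dimmer BUB3 probe (EMBV3_25695) gave -0.11 ± 0.18, with an unadjusted p of 0.387 in limma and 4 of 8 arrays below 0. Neither BUB3 probe passed, and the interval does not exclude a small decrease.

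MAD2L1 encodes MAD2, which binds CDC20 directly. Its probe (EMBV3_00965) read 9.06, 8.72, 9.32 and 10.66 in the atretic follicles and 11.31, 8.85, 11.58 and 10.50 in the plateau follicles. Pairs 1 and 3 differed strongly, pairs 2 and 4 hardly did, and the groups overlapped. The ratios by pair were -2.15, -0.14, -2.15 and 0.18, and their mean of -1.07 ± 1.26 (SD, n = 4) had a 95% interval of -2.28 to 0.15 and an unadjusted p of 0.0745 in limma. The probe annotated MAD2 (EMBV3_32778) gave ratios of -2.04, -0.25, -2.02 and 0.19, with a mean of -1.03 ± 1.17, so the pattern of pairs was the same on both probes. Without pair 1 the MAD2L1 ratio was -0.70 (unadjusted p = 0.24 in limma), and without pair 3 it was -0.71 (unadjusted p = 0.209). Without pair 4 it was -1.48, which passed the study's threshold, and with the replicate block its unadjusted p was 0.00852 in limma.

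**Figure D2:**
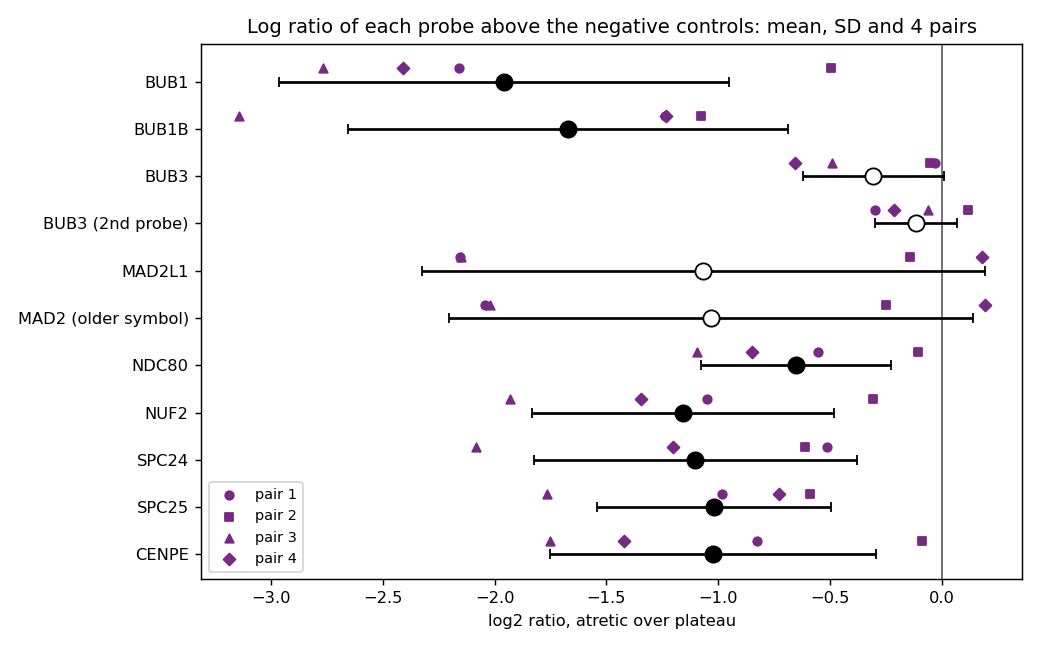
Log2 ratio of atretic over plateau for each probe with any reading above the negative controls (black circles, mean; bars, SD over 4 pairs; small symbols, the pairs); filled circles passed the study's threshold. BUB1 has the lowest mean at -1.96, while both BUB3 probes lie near 0 and MAD2L1 and MAD2 share the same spread of pairs.

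NDC80, NUF2, SPC24 and SPC25 are the 4 subunits of the NDC80 complex, the rod that grips spindle microtubules. Each of the 4 fell in atretic follicles by its brightest probe. NUF2, which pairs with NDC80 at the microtubule end of the rod, read (EMBV3_02922) 7.91, 7.60, 8.30 and 8.65 in the atretic follicles and 9.00, 7.87, 10.36 and 9.995 in the plateau follicles. Only plateau follicle 2 lay within the atretic range. The NUF2 ratio was -1.16 ± 0.68 (SD, n = 4), 2.23-fold lower in atretic follicles (adjusted p = 0.387 in limma), and was below 0 on all 8 arrays.

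SPC24, which with SPC25 forms the end of the rod that faces the centromere, read (EMBV3_09659) 8.41, 6.95, 7.38 and 7.92 in the atretic follicles and 8.98, 7.55, 9.55 and 9.13 in the plateau follicles. Plateau follicle 2 fell between the atretic follicles here too. The SPC24 ratio was -1.10 ± 0.72 (SD, n = 4; adjusted p = 0.458 in limma), and it was -0.81 on slide 205 and -1.40 on slide 206. Only 5 of 8 atretic readings and 7 of 8 plateau readings of the SPC24 probe were above the negative controls. SPC25 (EMBV3_37152) read 7.59, 6.86, 7.71 and 7.50 in the atretic follicles and 8.62, 7.45, 9.56 and 8.27 in the plateau follicles, so the groups overlapped through plateau follicle 2. Its ratio was -1.02 ± 0.52 (SD, n = 4; adjusted p = 0.325 in limma), with 6 atretic and 7 plateau readings above the negative controls. The other SPC25 probe (EMBV3_33262) had 0 of 16 readings above the negative controls and is not well above background, so no fold is given for it.

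NDC80 (EMBV3_00033) read 7.71, 7.13, 7.63 and 7.61 in the atretic follicles and 8.27, 7.26, 8.78 and 8.50 in the plateau follicles. Atretic follicle 2 and plateau follicle 2 were the lowest of their groups and differed little. The NDC80 ratio of -0.65 ± 0.43 (SD, n = 4; adjusted p = 0.528 in limma) was 1.57-fold lower in atretic follicles, just past the fold of 1.5. It did not pass without pair 3 (-0.50) or without pair 4 (-0.59, unadjusted p = 0.0642 in limma). In the atretic follicles 7 of 8 NDC80 readings were above the negative controls, and in the plateau follicles 6. The authors had marked its spot on slide 206, Area 1, for exclusion, and with marked spots set to missing the ratio was -0.63.

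CENPE is a kinesin motor that carries chromosomes along microtubules to the middle of the spindle. The CENPE probe (EMBV3_29314) read 7.69, 7.02, 7.41 and 8.50 in the atretic follicles and 8.55, 7.12, 9.23 and 9.92 in the plateau follicles. Plateau follicle 2 lay near the lowest atretic follicle, and atretic follicle 4 came close to plateau follicle 1. The ratio was -1.02 ± 0.73 (SD, n = 4; adjusted p = 0.518 in limma), with -0.83, -0.09, -1.75 and -1.42 in pairs 1 to 4. It did not pass without pair 4, at -0.89 with an unadjusted p of 0.0624 in limma. In the atretic follicles 6 of 8 readings were above the negative controls, and in the plateau follicles 7.

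For none of the 9 genes did all 4 atretic follicles lie below all 4 plateau follicles, a pattern shown by 1.41% of all genes tested. The fall in BUB1, BUB1B, NUF2, SPC24 and SPC25 passed the study's unadjusted threshold whichever pair was left out. Each such fit called 2.63% to 3.48% of all genes lower, and the share lower in every fit was not counted. Without pair 3 the ratios were -1.69 for BUB1, -1.18 for BUB1B, -0.90 for NUF2, -0.775 for SPC24, -0.769 for SPC25 and -0.78 for CENPE. When follicle levels were compared without the pairing, NUF2 was not called (-1.19, unadjusted p = 0.0508 in limma).

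The 9 genes varied together from follicle to follicle. When each gene's log2 intensity was centred on its own mean and the 9 were averaged, the atretic follicles stood at -0.49, -1.18, -0.58 and -0.06 and the plateau follicles at 0.64, -0.78, 1.42 and 1.03. Within the plateau group the follicles thus ranged over more than 2 log2 units, and plateau follicle 2 lay below atretic follicles 1, 3 and 4. Pearson correlations between pairs of these genes over the 8 follicles ran from 0.70 to 0.98 with a median of 0.89 over 36 pairs of genes. These correlations include the difference between the phases, and the genes share the same arrays. Each gene's correlation with the mean of the other 8 was highest for BUB1, at 0.98, and lowest for BUB3, at 0.87.

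**Figure D3:**
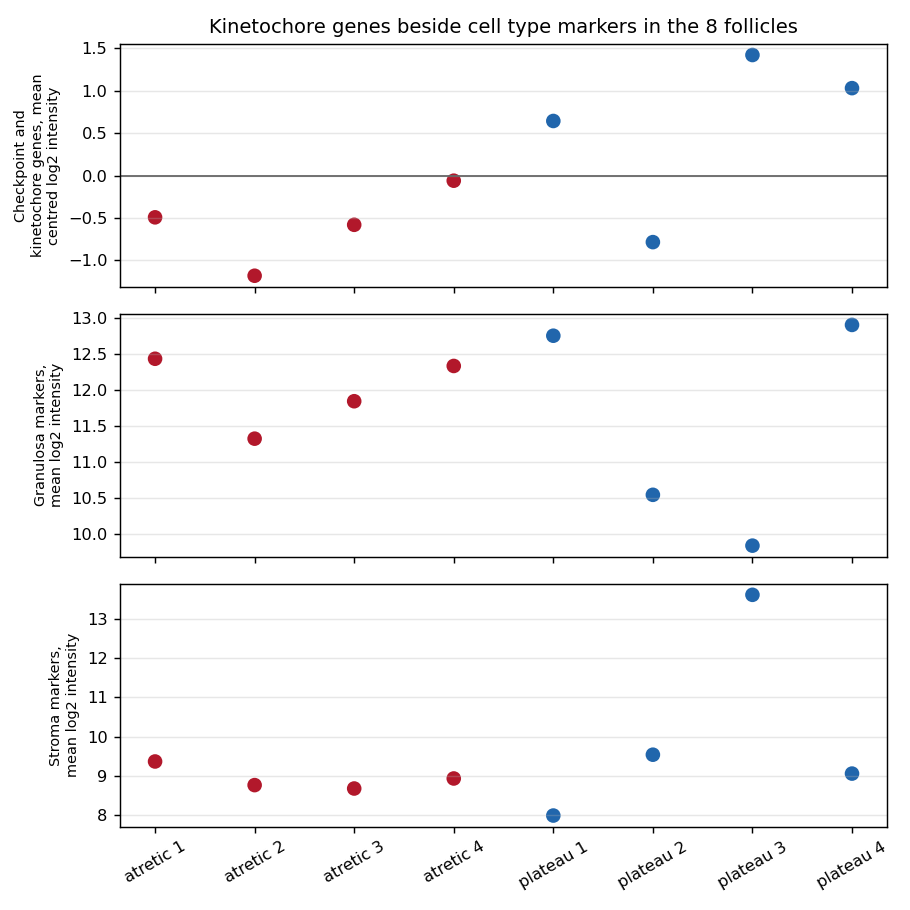
The 8 follicles (red, atretic; blue, plateau) by the mean centred log2 intensity of the 9 spindle checkpoint and kinetochore genes, and by the mean log2 intensity of 9 granulosa and 7 stroma markers. Plateau follicle 3 has the highest kinetochore mean (1.42), the lowest granulosa mean (9.83) and the highest stroma mean (13.62).

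Cell type markers moved with these genes in part of the follicles. The stroma list, with 7 of 7 genes measured, had mean log2 ratios of 1.36, -0.83, -4.84 and -0.11 in pairs 1 to 4, and its mean level was 8.68 to 9.37 in atretic and 7.99 to 13.62 in plateau follicles. In plateau follicles 1 and 4, where the stroma means were 7.99 and 9.06, the kinetochore genes were also above every atretic follicle on average. The macrophage list, with 6 of 7 genes measured, stood at 7.24 to 8.29 in atretic follicles. It stood at 7.02, 9.43, 9.52 and 7.36 in plateau follicles 1 to 4. Its gene CSF1R had 0 of 16 readings above the negative controls, while CTSS had 16, TYROBP 13, CD68 12, CD163 12, AIF1 11 and CD14 5. The granulosa list, with 9 of 9 genes measured, gave -0.19, 0.90, 2.03 and -0.52 by pair. The theca list of 2 genes gave 1.1, 0.185, -0.318 and -0.527. Its gene CYP17A1 stood at 9.42 in atretic follicle 1, 7.01 to 7.51 in the other atretic and 7.06 to 8.42 in the plateau follicles. The study removed an atretic sample from its qRT-PCR analysis for theca contamination. It described the analysis as holding the 4 hybridized samples and 2 or 3 additional ones per stage, with 6 atretic follicles left. By that account the removed sample was an additional one and not on these arrays. Over the 8 follicles, the profile of the kinetochore genes correlated with the 7 stroma markers at 0.03 (DCN) to 0.70 (COL1A2), and with the 9 granulosa markers at -0.40 (INHA) to 0.32 (HSD17B1). With the 5 smooth muscle and pericyte markers the profile correlated at -0.83 (MYH11) to 0.73 (TAGLN). With the 5 measured endothelium markers it correlated at -0.58 (KDR) to 0.73 (CLDN5). The part of these other cells in the lower kinetochore levels was not tested beyond the values without pair 3.

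The other genes of the checkpoint and kinetochore were read from 3 lists of 48 genes, of which 38 were measured. Of these, 11 (28.9%) were lower at the study's threshold, beside 2.92% of all genes, and 0 were higher, beside 2.84%. In limma 0 passed an adjusted p of 0.05, while 14 had an unadjusted p under 0.05 and a lower level, beside 4.33% of all genes. Without pair 1, 6 of the 38 were lower, beside 3.48% of all genes, and 6 were lower when follicle levels were compared without the pairing, beside 1.84%. The median log2 ratio over the 38 was -0.40. These lists were drawn up with earlier results on mitotic genes in these arrays known, and their direction is not independent evidence.

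Among 14 measured genes of the checkpoint and outer kinetochore, 6 fell, 8 did not pass and the median ratio was -0.31. CENPF, a large protein of the outer kinetochore, fell by 1.36 ± 0.74 on the log2 scale (SD, n = 4). SPDL1 (spindly), which recruits dynein to kinetochores, fell by 1.27 ± 1.26, but its call was lost without pair 1, 3 or 4 and its ratio was -0.82 without pair 3. ZWILCH, a subunit of the complex that recruits spindly, fell by 1.20 ± 0.32, with 4 similar pairs at -1.27, -1.57, -0.79 and -1.19 (adjusted p = 0.167 in limma, equal to the lowest value over all probes tested). CDC20, the checkpoint's target, fell by 1.15 ± 0.77, with -0.01 in pair 2, and its unadjusted p was 0.0501 in limma without pair 1. DSN1, of the complex that links the rod to the centromere, fell by 0.94 ± 0.92 while its dimmer probe gave 0.13, and SKA3, of a complex that follows shortening microtubules, fell by 0.86 ± 0.49. Ratios of 0.19 for ZW10, 0.30 for MIS12 and 0.32 for MAD1L1, which anchors MAD2 at kinetochores, did not pass.

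**Figure D4:**
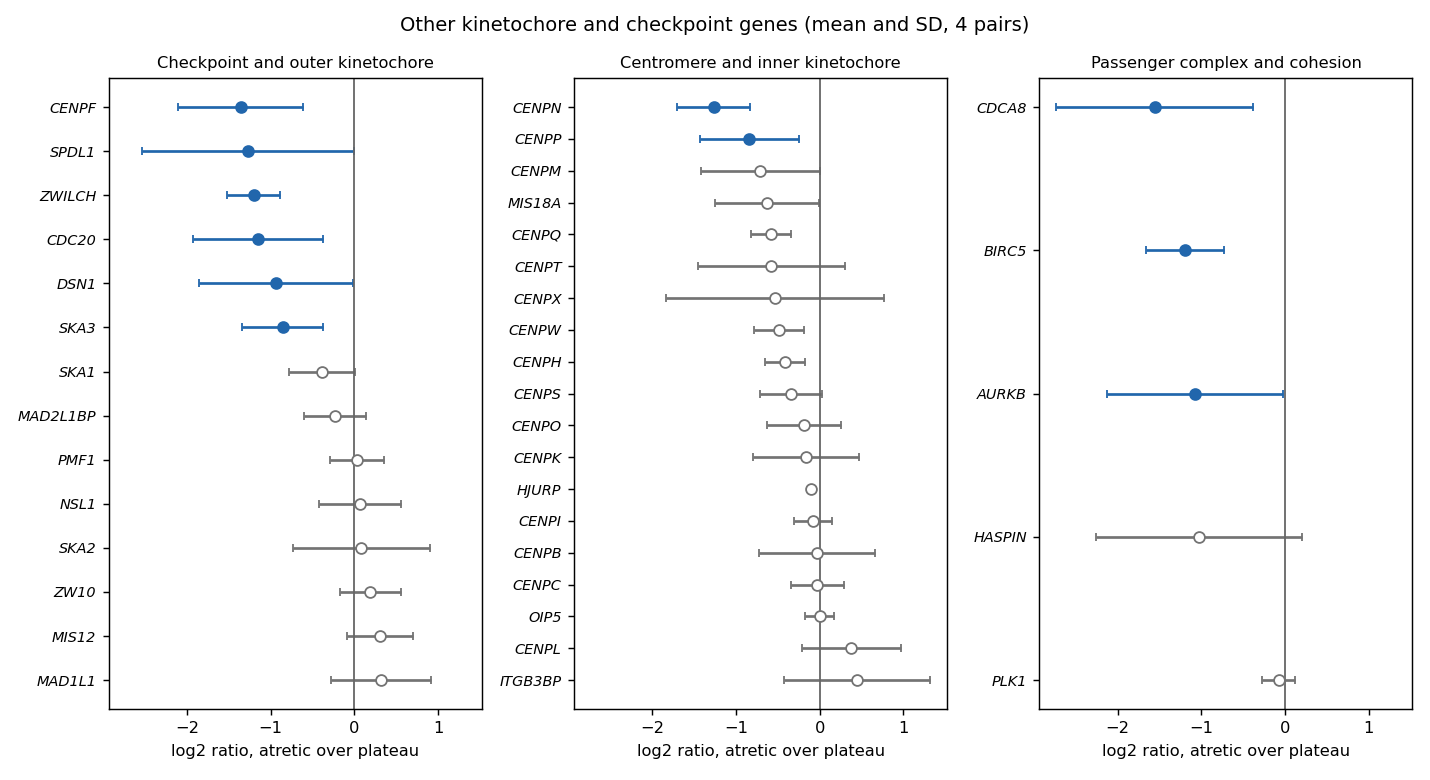
Log2 ratio of atretic over plateau (mean and SD over 4 pairs) for the 38 measured genes of 3 lists; filled blue circles passed the study's threshold. Called genes number 6 of 14 in the checkpoint and outer kinetochore list, 2 of 19 in the centromere list and 3 of 5 in the passenger complex list, and all lie below 0. Of all genes tested, 2.92% were called lower.

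Of 19 measured genes of the centromere and inner kinetochore, 2 fell and 17 did not pass, with a median ratio of -0.34. CENPN, which binds the centromeric nucleosome, fell by 1.27 ± 0.44 (SD, n = 4), although its dimmer probe gave -0.42 and did not pass. CENPP, a subunit of the inner kinetochore network, fell by 0.84 ± 0.59 and was not called without pair 2 (-0.76, unadjusted p = 0.065 in limma). CENPC, a scaffold present on centromeres throughout the cell cycle, had a ratio of -0.03 and CENPB, which binds centromeric DNA, one of -0.03.

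Of 5 measured genes of the chromosomal passenger complex and centromere cohesion, 3 fell and the median ratio was -1.07. CDCA8 (borealin), which anchors this complex, fell by 1.55 ± 1.18 (SD, n = 4), with -0.07 in pair 2, and its unadjusted p was 0.0637 in limma without pair 1. BIRC5 (survivin), another anchoring subunit, fell by 1.20 ± 0.47 and kept its call whichever pair was left out, and its dimmer probe gave -1.59. AURKB, the kinase of the complex, fell by 1.07 ± 1.05 by its brightest probe, but its ratio was -0.69 without pair 3, its call was lost without pair 1, 3 or 4, and its other probes gave -0.11 and -0.42. PLK1, a mitotic kinase, had a ratio of -0.08 on a dim probe.

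The genes most like these in their levels were sought among the other 12935 genes tested, by the Pearson correlation over the 8 follicles with the mean profile of the 9. The closest were CCNB1 (0.996), the cyclin that starts mitosis, KIF2C (0.993), a kinesin that takes microtubules apart, PCLAF (0.990), a partner of the replication clamp, KIF11 (0.990), the kinesin that separates spindle poles, and CDK1 (0.990), the mitotic kinase. They were followed by KIF20A (0.988), a kinesin of cell division, SPAG5 (0.986), a spindle protein, AURKA (0.986), a spindle pole kinase, CDCA8 (0.986) and PBK (0.985), a kinase of dividing cells. Their log2 ratios ran from -2.11 for KIF2C to -0.87 for CDK1, and that of CCNB1 was -1.97 ± 1.04 (SD, n = 4). This likeness rests on 8 follicles from the same arrays and includes the difference between the phases.

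**Figure D5:**
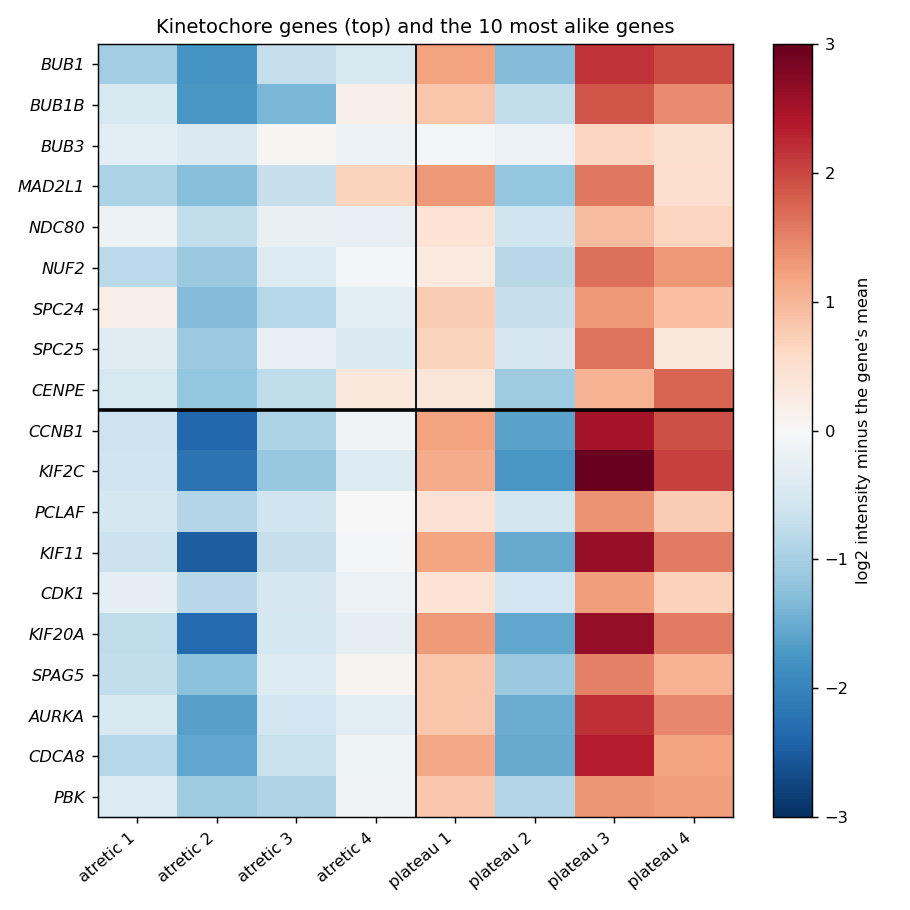
Log2 intensity minus the gene's own mean (colour) in each of the 8 follicles, for the 9 spindle checkpoint and kinetochore genes (above the line) and the 10 genes most like their mean profile (below it). Plateau follicle 2, whose mean over the 9 genes was -0.78, is blue in each row, and BUB3 shows the palest row.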

How the data were processed

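Amplified granulosa cell RNA had been hybridised to EmbryoGENE bovine arrays in Cy3 and Cy5. Slide 205 had Cy5 on the atretic RNA and slide 206 had Cy3 on it, so dye and slide cannot be told apart. The authors deposited the median intensity and local background of each spot, and a mark, recorded as 1 or 0, for spots excluded by hand (another kind of value that is not a measurement). The authors also deposited log2 ratios of Cy5 over Cy3 (background subtraction, loess, quantile), used as an alternative. Put through those steps, the intensities correlated at 0.999689 to 0.999926 with this table, with slopes of 1.00, and its column medians were -0.03 to -0.01.

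Intensities were corrected in limma 3.58.1 (R 4.3.3) by normexp (offset 50), and normalized by loess (span 0.3, controls and marked spots at weight 0) and between-array quantiles. Ratios were turned to atretic over plateau, and arrays of equal Area number averaged. The labels do not state that equal numbers share follicles. After removing slide means, ratios correlated at 0.76 to 0.87 for equal and -0.49 to -0.03 for unequal numbers, and equal numbers were taken as pairs. Probes of mean log2 intensity 7 or above (33523 probes, 12944 genes) entered lmFit and eBayes, adjusted over all of them. Genes were represented by the brightest probe. Levels came from Aquantile normalization after loess, averaged over a follicle's 2 arrays, and their differences can depart slightly from the ratios. Symbols came from the platform annotation, for 21790 probes, and 1523 probes' symbols were updated through gene records of ARS-UCD2.0. The build behind the probes was not given in the sources used here, and no coordinates or promoter sequences were used.

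All members were named with every probe. From each other list, up to 4 called genes with the largest change were named, and the 10 genes most like the mean profile; DSN1, SKA3, ZW10, MIS12, MAD1L1, CENPB, CENPC and PLK1 were added after their values were seen. The members and lists were chosen with earlier results of these data known. The limma fit and the threshold were tested on simulated log ratios, drawn independently for each probe with its own SD. Background correction, normalization, pairing and the choice of probe were not simulated. Alternatives changed background correction, normalization, filter, source of values, variance model, dye swap treatment, pairing, slide, probe, fold and each pair left out. Figures used matplotlib 3.10.9 (Python 3.11.15), and statmod 1.5.0 served the block fit.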

Additional observations from a re-analysis of the deposited data

Results flagged for a closer look

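Over 44 groups of 4 values examined for the measured probes, 2 had a sample far from the rest of its group, at a limit that 95% of groups drawn by chance would keep, so 2 is about the number that chance gives. The log2 ratios of BUB1B over the 4 pairs had a gap of 0.922 of their range, between pair 3 at -3.14 and the next pair at -1.24. Plateau follicle 3 had the highest BUB1B level, 11.03, and atretic follicle 3 the second lowest atretic level, 7.78. The NDC80 levels of the atretic follicles had a gap of 0.833 of their range, between atretic follicle 2 at 7.13 and the other 3 at 7.61 to 7.71, on a probe near the negative controls.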

How the results depend on the processing

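The direction of the ratio of each gene of the spindle checkpoint and kinetochore was the same under every alternative in which it was tested. The count of genes called, 7 of 9, became 3 of the 4 tested (BUB1, NUF2 and MAD2L1, newly called at an unadjusted p of 0.0491 in limma; 4.6% of all genes) when only probes above the negative controls on every array were used. It was 4 without the pairing of follicles (1.84% of all genes) and 6 to 7 without one pair (2.63% to 3.48%). The count at an adjusted p of 0.05 rose from 0 to 4 in limma with the replicate block, beside 1.51% of all genes that were lower. It was also 4 with the block and a dye term, beside 1.29%, and both fits take 8 arrays in place of 4 means. MAD2L1 then passed the study's threshold too, and no other call on these 9 genes changed. Of other pathway genes, 6 rather than 11 were called without the pairing, and 6 to 13 without one pair, the lowest without pair 1, and 1 was called higher on each slide alone. The median over the 9 genes was -1.33 to -0.78 without one pair. NDC80 fell under a fold of 1.5 with plain subtraction (-0.57), no background correction (-0.51) and the authors' ratios (-0.57), and NUF2, CENPE and NDC80 were not called without the pairing. SPC24 was not called on slide 205 alone (-0.81, unadjusted p = 0.0559 in limma), while MAD2L1 was on slide 206 alone (-1.19). Beyond what is stated, the causes were not tested. Dim probes limit SPC24, SPC25, NDC80 and CENPE, whose readings were partly at the level of the negative controls.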
